A study of Mus musculus with 4 samples.

Results

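Cajal-Retzius neurons of the mouse hippocampus were sought among single nuclei by 3 criteria. A nucleus was taken when it held at least 1 UMI of *Trp73*, at least 2 UMIs of *Reln*, *Ndnf*, *Lhx1os* and *Ebf3* together, and at most 1 UMI of *Gad1* and *Gad2* together, with at most 20% of its UMIs from mitochondrial genes. A UMI is a count of 1 tagged RNA molecule. The criteria took 217 nuclei of the 56834 that passed the mitochondrial limit, or 0.382%. These are called gated nuclei here, because the data below show that 83 of the 217 carried little of the Cajal-Retzius markers relative to their other RNA.

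Cajal-Retzius neurons are early-born neurons of the cortical and hippocampal marginal zones. They are glutamatergic, use the vesicular transporter VGLUT2 (*Slc17a6*) and secrete reelin, which acts through the receptors APOER2 (*Lrp8*) and VLDLR and the adaptor DAB1 to position neurons. Most are lost after birth in the neocortex, and a part of them stays in the adult hippocampus near the hippocampal fissure. The p53 family factor p73 (*Trp73*) is known for its role in their survival.

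Hippocampal nuclei from 8 pools of 3 male mice were barcoded together, and each of 4 sublibraries held nuclei of every pool. The C57BL/6 pools were Control-Vehicle and Stress-Vehicle, and Control-PLX5622 and Stress-PLX5622. Vehicle was AIN-76A chow, and PLX5622, an antagonist of the receptor CSF1R that depletes microglia, was given in that chow from a week before stress. The other pools, all bred in-house, were Con-IL-1R1+/+ and Stress-IL-1R1+/+, and Con-nIL-1R1-/- and Stress-nIL-1R1-/-. IL-1R1+/+ mice were Cre-negative, and nIL-1R1-/- mice lacked *Il1r1* in cells of the *Vglut2*-Cre lineage, glutamatergic neurons in the main, and this Cre is driven by the same gene (*Slc17a6*) that Cajal-Retzius neurons use. Stress was repeated social defeat (RSD) by a male CD-1 aggressor, with nuclei taken 14 h after it. Each combination was 1 pool of 3 mice, so mice could not be told apart, and a test of stress rests on 4 stress and control pools matched by diet or genotype. Each p below measures the spread between pools. In tests of stress, genotype and diet, a stress effect that differed between pairs of pools counts as part of that spread.

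Depth differed widely between pools. The kept nuclei held 38690912 UMIs in Control-Vehicle, 15154151 in Stress-Vehicle, 7651910 in Control-PLX5622 and 7534594 in Stress-PLX5622. Con-IL-1R1+/+ held 37763288, Stress-IL-1R1+/+ 28126629, Con-nIL-1R1-/- 58081835 and Stress-nIL-1R1-/- 24531457. Both PLX5622 pools were the shallowest, with medians of 598 and 628 UMIs per nucleus against 5012 in Con-nIL-1R1-/-. Of 57350 barcodes deposited, 0 occurred in more than 1 pool.

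The gated nuclei fell into a marker-dense and a marker-sparse portion. In 134 of them the 5 markers of the gate made up at least 0.5% of all UMIs, with a median of 1.42%. These marker-dense nuclei were small libraries, with a median of 1193.5 UMIs and a range of 188 to 9142. The other 83, called marker-sparse, had a median of 0.113% and were large libraries, with a median of 9739 UMIs and a range of 949 to 192145. The limit of 0.5% was chosen after seeing the data, and 20 nuclei lay between 0.25% and 0.5% and 26 between 0.5% and 1%. Because the gate counts UMIs and not their proportion, a deep nucleus needs less of each marker to pass. In the shallowest nuclei the UMIs that the gate requires are by themselves at least 0.5%, so these were marker-dense in advance. The deepest, in Con-nIL-1R1-/-, held 192145 UMIs, of which 4 were *Trp73* and 3 *Reln*, beside 622 of the synaptic vesicle gene *Syt1*.

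**Figure D1:**
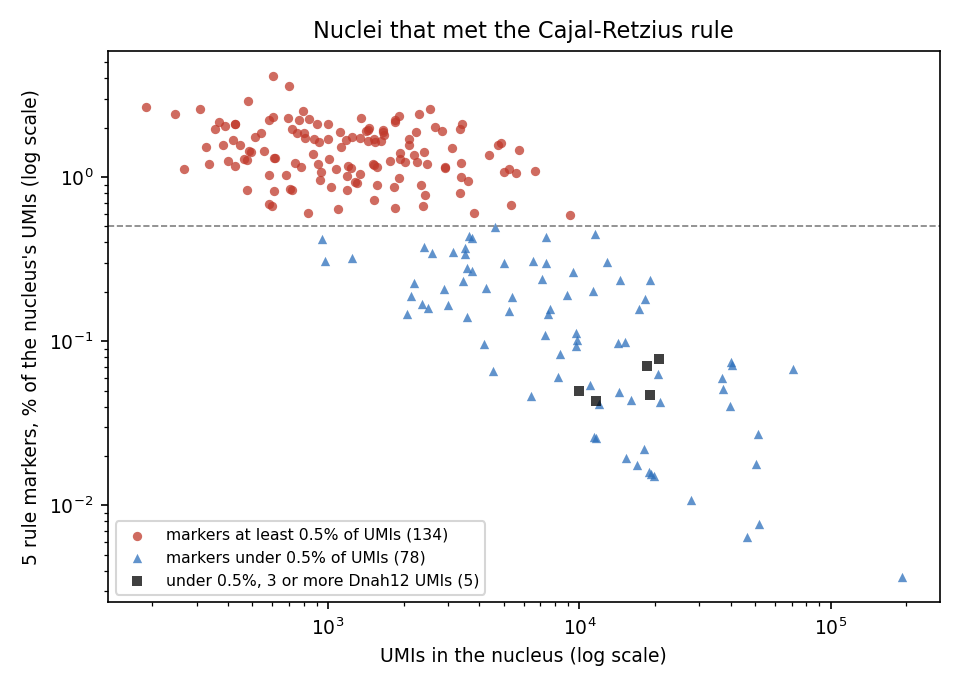
Each point is 1 of the 217 gated nuclei, with its total UMIs (x axis, log scale) against the percent of those UMIs from the 5 gate markers (y axis, log scale), and a dashed line at 0.5%. The 134 marker-dense nuclei (circles) lie above the line at 188 to 9142 UMIs, and the 83 marker-sparse nuclei lie below it at 949 to 192145 UMIs, with 5 of these marked as squares for 3 or more UMIs of *Dnah12*.

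Summed over pools, the marker-sparse nuclei gave 85.8% of the 1559055 UMIs of the gate and the marker-dense nuclei 14.2%. By pool, the marker-dense nuclei gave 13.0% in Control-Vehicle, 7.67% in Stress-Vehicle, 17.2% in Control-PLX5622, 53.5% in Stress-PLX5622, 11.04% in Con-IL-1R1+/+, 54.3% in Stress-IL-1R1+/+, 9.49% in Con-nIL-1R1-/- and 24.9% in Stress-nIL-1R1-/-. Summed levels of the gated nuclei were therefore set largely by the marker-sparse nuclei in 6 pools. Tests below were made on all gated nuclei, and the levels of the marker-dense nuclei are given beside them as a description. Counts of calls in the marker-dense nuclei alone are given as an alternative chosen after seeing the data. Levels are in CPM, the UMIs of a gene out of every 1000000 UMIs of that class of nuclei in the pool. The main comparison class, called other neurons, was the 48220 nuclei with *Syt1* outside the gate.

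*Il1r1* (chromosome 1, 40264174 to 40356417, plus strand, GRCm39), the IL-1 receptor gene that the genotype deletes, was sparse in the gated nuclei. It had 3 UMIs in Control-Vehicle, 2 in Stress-Vehicle, 1 in Control-PLX5622, 0 in Stress-PLX5622, 2 in Con-IL-1R1+/+, 4 in Stress-IL-1R1+/+, 3 in Con-nIL-1R1-/- and 0 in Stress-nIL-1R1-/-. All 15 lay in 11 marker-sparse nuclei. The 134 marker-dense nuclei held 0 UMIs of *Il1r1* among 220758 in all, which allows up to 13.6 CPM, and other neurons were at 12.7 CPM, so a difference was not detectable at this depth. Against other neurons the log2 value of the gated nuclei was −0.41 ± 0.44 (adjusted p = 0.782). The reads are not assigned to exons here, so they do not show whether the deleted exons were present. In other neurons *Il1r1* was at 20.6 CPM in Control-Vehicle, 22.3 in Stress-Vehicle, 21.2 in Control-PLX5622, 17.7 in Stress-PLX5622, 12.1 in Stress-IL-1R1+/+ and 15.5 in Con-IL-1R1+/+. It was at 5.26 in Con-nIL-1R1-/- and 4.75 in Stress-nIL-1R1-/-, the lowest of the 8 pools.

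Values at the limits of the gate were as follows. Of 832 nuclei with *Trp73*, 74 gated nuclei had exactly 1 UMI, and 31 of these were marker-dense. Outside the gate, 1932 nuclei met the other criteria with 0 UMIs of *Trp73*, and 91 of them were marker-dense by the same limit. With 2 UMIs of the other markers there were 21 gated nuclei, of which 2 were marker-dense, and with 1 UMI there were 81 nuclei just outside, of which 1 was. At 1 UMI of *Gad1* and *Gad2* there were 20 gated nuclei and at 2 UMIs 4 just outside. Another 38 nuclei had 3 or more, which were left out.

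The genes of the gate are described with no test, since they chose the nuclei. *Reln* (chromosome 5, 22089452 to 22549700, minus strand), which encodes reelin, had a summed level of 1536 CPM in Control-Vehicle, 906 in Stress-Vehicle, 1709 in Control-PLX5622, 7199 in Stress-PLX5622, 1497 in Con-IL-1R1+/+, 6173 in Stress-IL-1R1+/+, 1177 in Con-nIL-1R1-/- and 3404 in Stress-nIL-1R1-/-. Stress-PLX5622 and Stress-IL-1R1+/+, the pools where marker-dense nuclei gave most of the UMIs, stood highest. Within the marker-dense nuclei alone *Reln* lay between 7434 and 12355 CPM in the 8 pools. *Trp73* (chromosome 4, 154140706 to 154224665, minus strand) lay between 279.9 and 2089.9 CPM in the gated nuclei and between 1323 and 3289 CPM in the marker-dense ones. The marker-dense nuclei were set apart by these same markers. Of the 217 nuclei, 213 had a UMI of *Reln*, 125 of *Ndnf*, a secreted factor, 104 of *Ebf3*, a transcription factor, and 58 of *Lhx1os*, an RNA that overlaps *Lhx1* on the other strand. In Control-PLX5622, with 7 marker-dense nuclei, *Ebf3* was at 0 in these.

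Next, markers that the gate did not use were read as a check of the name. *Lhx1*, a LIM homeobox factor of Cajal-Retzius neurons that lies wholly within *Lhx1os* of the gate on the other strand, so that its value may not be independent of the gate, was at 81.5 CPM in the marker-dense nuclei (18 UMIs, exact Poisson 95% interval 48.3 to 129) against 0.377 CPM in other neurons. *Lhx5*, a close relative, was at 49.8 CPM (24.9 to 89.2) against 0.391. The bHLH factor gene *Nhlh2* was at 90.6 CPM (55.3 to 139.9) against 0.363, and the chemokine receptor gene *Cxcr4* was at 22.6 CPM (7.35 to 52.9) against 0.0716. These intervals cover counting error only. *Calb2*, which encodes calretinin, was at 36.2 CPM (15.6 to 71.4) against 2.25. All of these lay above other neurons by more than counting error in the marker-dense nuclei, and none had enough UMIs in the gated nuclei to enter the tests across pools. Among 20 Cajal-Retzius factors and markers listed outside the gate, others that could not be tested were also read, and *Emx2* was at 31.7 CPM (7 UMIs) against 1.99, *Ebf2* at 22.6 (5 UMIs) against 4.82, *Zic2* at 22.6 (5 UMIs) against 0.654 and *Barhl2* at 13.6 (3 UMIs) against 0.215. *Nhlh1* was at 0 in the marker-dense nuclei and 0.0382 in other neurons, and *Emx1*, also of the list, at 0 and 4.70, both under the 13.6 CPM that a count of 0 allows. *Slc17a6* was at 113 CPM in the marker-dense nuclei against 8.46 in other neurons, whereas *Slc17a7*, the VGLUT1 gene of hippocampal pyramidal and granule neurons, was at 13.6 against 70.9. Of 6 such markers (*Lhx1*, *Lhx5*, *Calb2*, *Slc17a6*, *Cacna2d2* and *Car10*), 15 of the 134 marker-dense nuclei held none, 32 held 1, 48 held 2 and 32 held 3, with 4 or more in the rest. Of the 83 marker-sparse nuclei, which are deeper, 8 held none, 28 held 1, 32 held 2 and 9 held 3, so most nuclei of both portions held at least 1. *Car10*, at 467 CPM in other neurons, had a UMI in 109 marker-dense and 72 marker-sparse nuclei. No such count is given for other neurons, so holding at least 1 of the 6 is no check of the name.

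In the marker-sparse nuclei *Lhx1* was lower, at 7.47 CPM, as was *Slc17a6*, at 16.4. *Slc17a7* was higher there than in the marker-dense nuclei, at 68.0 CPM, near the 70.9 of other neurons. *Cpne4*, a marker of CA2 and CA3 neurons, was at 394 CPM in the marker-sparse nuclei and 410.1 in other neurons, against 67.9 in the marker-dense. The CA1 markers summed to 219 CPM against 237 in other neurons, the dentate granule markers to 341 against 461, the medium spiny neuron markers to 32.1 against 60.03 and the interneuron markers to 539 against 1387, where the gate admits no nucleus with more than 1 UMI of *Gad1* and *Gad2* together. *Lhx1*, at 7.47 CPM, was still above the 0.377 of other neurons. The name Cajal-Retzius is used here for the marker-dense nuclei only.

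The lists of other cell types were summed in the marker-dense nuclei. Of 7 interneuron markers 1 had UMIs, *Adarb2*, and *Slc32a1*, *Lhx6*, *Sst*, *Pvalb*, *Vip* and *Lamp5* were at 0, as were the 4 leptomeningeal markers (*Dcn*, *Col1a1*, *Col1a2* and *Slc6a13*). A count of 0 allows up to 13.6 CPM here, while in other neurons none of the 6 was above 7.45 CPM and the leptomeningeal list summed to 3.47, so these zeros do not show a difference at this depth. The 3 CA2 and CA3 markers summed to 90.6 CPM against 432 in other neurons, the 4 CA1 markers to 154 against 237 and the 3 dentate granule markers to 494 against 461, most of it *Dock10* (444), with *C1ql2* at 0. The 4 oligodendrocyte markers summed to 299 CPM against 190.5 in other neurons, the 4 astrocyte markers to 40.8 against 50.8, the 4 microglial markers to 49.8 against 37.7 and the 3 endothelial markers to 18.1 against 28.1. The 3 oligodendrocyte precursor markers summed to 90.6 against 37.0, with *Cspg4* at 67.9 and *Pdgfra* at 0, and the 3 medium spiny neuron markers to 18.1 against 60.03, with *Drd1* and *Drd2* at 0. Their part in the results below was not tested.

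Ependymal genes stood out in a few of the gated nuclei. *Dnah12*, a gene of the axonemal dynein of motile cilia, had 252 UMIs, and 243 of them were in 5 marker-sparse nuclei, of which Stress-Vehicle held 2, Con-IL-1R1+/+ 2 and Stress-IL-1R1+/+ 1. These 5 nuclei gave 5.12% of the UMIs of the gate. The ependymal list of 3 genes had 2 with a UMI, *Dnah12* and *Foxj1*, and the choroid plexus gene *Ttr* was at 0. Its summed level was 804 CPM in Stress-Vehicle, 368 in Con-IL-1R1+/+, 236.9 in Stress-IL-1R1+/+, 10.1 in Con-nIL-1R1-/- and 0 in the other pools. In the marker-dense nuclei it had 2 UMIs. *Dnah11*, *Cfap43*, *Wdr49*, *Dnah6* and *Hydin*, which are also genes of motile cilia and were chosen after their values were seen, were at 72.5 to 137 CPM in the gated nuclei and 0 to 13.6 CPM in the marker-dense ones. All 6 passed the test against other neurons below, at log2 fold changes of 3.35 to 4.26.

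The share of gated nuclei was then compared by stress. It was 0.472% in Control-Vehicle (40 of 8474 nuclei, exact Clopper-Pearson 95% interval 0.337 to 0.642) and 0.273% in Stress-Vehicle (20 of 7332, 0.167 to 0.421). With PLX5622 it was 0.149% in control mice (11 of 7382, 0.0744 to 0.266) and 0.287% in stressed mice (22 of 7678, 0.180 to 0.433). The 2 PLX5622 intervals overlapped, as did the vehicle intervals. In IL-1R1+/+ mice it was 0.503% in control (38 of 7554, 0.356 to 0.690) and 0.307% in stress (18 of 5858, 0.182 to 0.485). In nIL-1R1-/- mice it was 0.660% in control (43 of 6511, 0.478 to 0.889) and 0.414% in stress (25 of 6045, 0.268 to 0.610). Stress pools were lower in 3 of 4 pairs and higher with PLX5622. The mean was 0.446% ± 0.215 in control and 0.320% ± 0.0639 in stress pools (SD, n = 4), a difference of −0.126 percentage points ± 0.177, which did not pass a two-sided exact sign-flip permutation test (p = 0.25, where the smallest p that 4 pairs allow is 1 in 8).

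The share was also read after thinning and in the marker-dense nuclei alone, and the part of depth in it was not tested. When each nucleus was thinned to 1000 UMIs and shallower nuclei were left out, 81 of 38997 nuclei passed the gate, and the mean share was 0.179% in control and 0.226% in stress pools, with stress lower in 2 of 4 pairs and 0.311 points higher in the PLX5622 pair. The share of marker-dense nuclei was 0.260% in Control-Vehicle, 0.177% in Stress-Vehicle, 0.0948% in Control-PLX5622, 0.234% in Stress-PLX5622, 0.278% in Con-IL-1R1+/+, 0.256% in Stress-IL-1R1+/+, 0.307% in Con-nIL-1R1-/- and 0.298% in Stress-nIL-1R1-/-. Their means were 0.235% ± 0.0954 in control and 0.241% ± 0.0502 in stress pools, a difference of 0.00649 percentage points ± 0.0943 (SD of 4 pairs). Stress was again lower in 3 of 4 pairs, by less than in all gated nuclei in each, and the PLX5622 pair, at 0.140 points higher, set the sign of the mean. Control-PLX5622 was lowest, and the other 7 pools lay between 0.177% and 0.307%. As the shallowest gated nuclei count as marker-dense in advance, these shares are not free of depth, whose part was not tested.

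**Figure D2:**
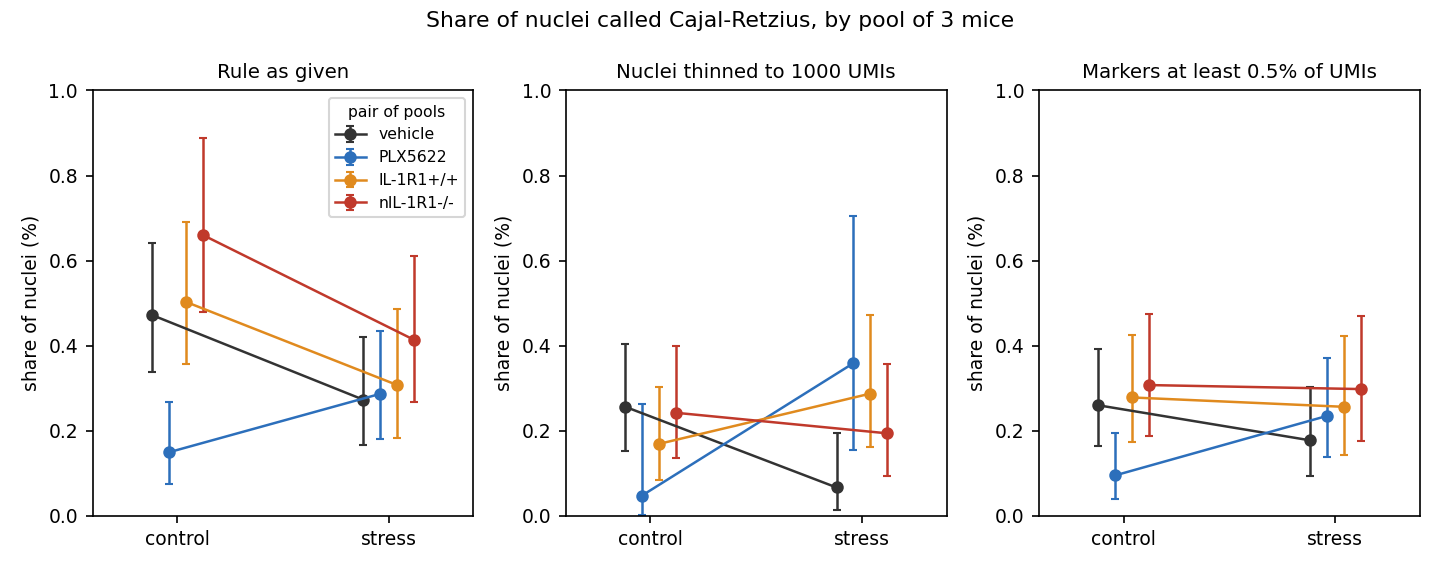
Shares of nuclei in percent are plotted for control and stress pools, with a line joining each pair and exact 95% binomial intervals as bars, for all gated nuclei (left), nuclei thinned to 1000 UMIs (middle) and marker-dense nuclei (right). Control-PLX5622 is lowest in all 3 panels, and in the right panel the intervals of all 8 pools overlap.

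Next, summed UMIs of the gated nuclei were compared with those of the other neurons of the same pool. Of 11781 genes tested over 8 pools by edgeR's quasi-likelihood test with the pool as a block and Benjamini-Hochberg adjustment, 331 were higher in the gated nuclei (2.81% of genes tested) and 445 lower (3.78%). With size factors by relative log expression in place of TMM, 400 were higher and 267 lower, so that 59.97% of the calls were higher against 42.7%, and the median log2 difference of all genes moved from −0.10 to 0.01. Of the genes that passed, had at least 50 UMIs and went the same way in every pool with a UMI of the gene, 66 were higher and 153 lower, and the 15 with the highest and the 10 with the lowest log2 change are named here. Apart from *Dlx6os1*, with 37, the 10 lower genes had 0 to 4 UMIs in the gated nuclei.

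*Eln* (chromosome 5, 134731445 to 134776322, minus strand), which encodes elastin, was at 147 CPM in Control-Vehicle, 68.2 in Stress-Vehicle, 142 in Control-PLX5622, 630.3 in Stress-PLX5622, 103 in Con-IL-1R1+/+, 399.7 in Stress-IL-1R1+/+, 99.8 in Con-nIL-1R1-/- and 215 in Stress-nIL-1R1-/-. Other neurons lay at 3.78 to 10.4 CPM in the same pools, so the groups did not overlap. The log2 fold change was 4.58 ± 0.24 (SE, adjusted p = 3.7e-31). In the marker-dense nuclei *Eln* was at 693 CPM, 115-fold the 6.05 CPM of other neurons, and between 441 and 1055 CPM in the 8 pools.

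*Dach1* (chromosome 14, 98024289 to 98407201, minus strand), a transcription cofactor that works with EYA proteins, was at 306 CPM in Control-Vehicle, 157 in Stress-Vehicle, 712 in Control-PLX5622 and 1062 in Stress-PLX5622. It was at 411 in Con-IL-1R1+/+, 888 in Stress-IL-1R1+/+, 309.5 in Con-nIL-1R1-/- and 753 in Stress-nIL-1R1-/-. Every one of these values exceeded the 14.5 to 45.7 CPM of other neurons. The log2 fold change was 4.00 ± 0.18 (adjusted p = 1.7e-37), and the marker-dense nuclei stood at 1948 CPM. The EYA genes *Eya2* and *Eya4* rose as well, by 2.82 ± 0.30 and 1.79 ± 0.32, though the pools of *Eya4* overlapped those of other neurons.

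*Diablo* (chromosome 5, 123647828 to 123662239, minus strand), which encodes a mitochondrial protein that binds inhibitors of apoptosis once released, was at 169 CPM in Control-Vehicle, 68.2 in Stress-Vehicle, 142 in Control-PLX5622, 332 in Stress-PLX5622, 106 in Con-IL-1R1+/+, 385 in Stress-IL-1R1+/+, 149 in Con-nIL-1R1-/- and 215 in Stress-nIL-1R1-/-. Other neurons lay within 20.9 to 27.0 CPM, below all 8. The log2 fold change was 2.68 ± 0.19 (adjusted p = 1.46e-21), with 775 CPM in the marker-dense nuclei. *Diablo* overlaps *B3gnt4* on the other strand, and *Tmem163* overlaps *Mgat5* likewise, and whether the counting used strand is not given in the sources used here.

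*Cacna2d2* (chromosome 9, 107276811 to 107406543, plus strand), an auxiliary subunit of voltage-gated calcium channels, was at 225 CPM in Control-Vehicle, 149.9 in Stress-Vehicle, 285 in Control-PLX5622, 630.3 in Stress-PLX5622, 146 in Con-IL-1R1+/+, 459 in Stress-IL-1R1+/+, 184 in Con-nIL-1R1-/- and 274 in Stress-nIL-1R1-/-. Other neurons lay at 26.6 to 60.4 CPM and did not overlap. Its log2 fold change was 2.39 ± 0.18 (adjusted p = 2.85e-21), and the marker-dense nuclei were at 1001 CPM, between 579 and 1511 by pool.

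Other named genes that rose were *Pik3c2g*, a class II phosphoinositide 3-kinase (log2 fold change 3.69 ± 0.35), *Tmem163*, a zinc transporter (2.93 ± 0.17), *Utrn*, which encodes utrophin (2.54 ± 0.16), and the cadherin gene *Cdh4* (2.39 ± 0.17). *Sned1*, a matrix protein gene, rose by 2.07 ± 0.35, the repulsive guidance gene *Rgma* by 2.05 ± 0.27, the podosome scaffold gene *Sh3pxd2b* by 1.97 ± 0.28, *Angpt1*, a ligand of the receptor TIE2, by 1.96 ± 0.27 and *Hs3st5*, a heparan sulfate sulfotransferase gene, by 1.95 ± 0.18. All 15 named higher genes were higher in 8 of 8 pools, as their choice required, and the pools of 12 of them did not overlap those of other neurons. All 15 were also above other neurons in the marker-dense nuclei, at 9.33-fold for *Sned1* to 115-fold for *Eln*. Genes outside that rule, chosen after their values were seen, included *Ripk4* (5.72 ± 0.51, 17 UMIs, of which 15 were in marker-dense nuclei), *Lrig3* (4.22 ± 0.34) and *Casz1* (4.19 ± 0.34).

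**Figure D3:**
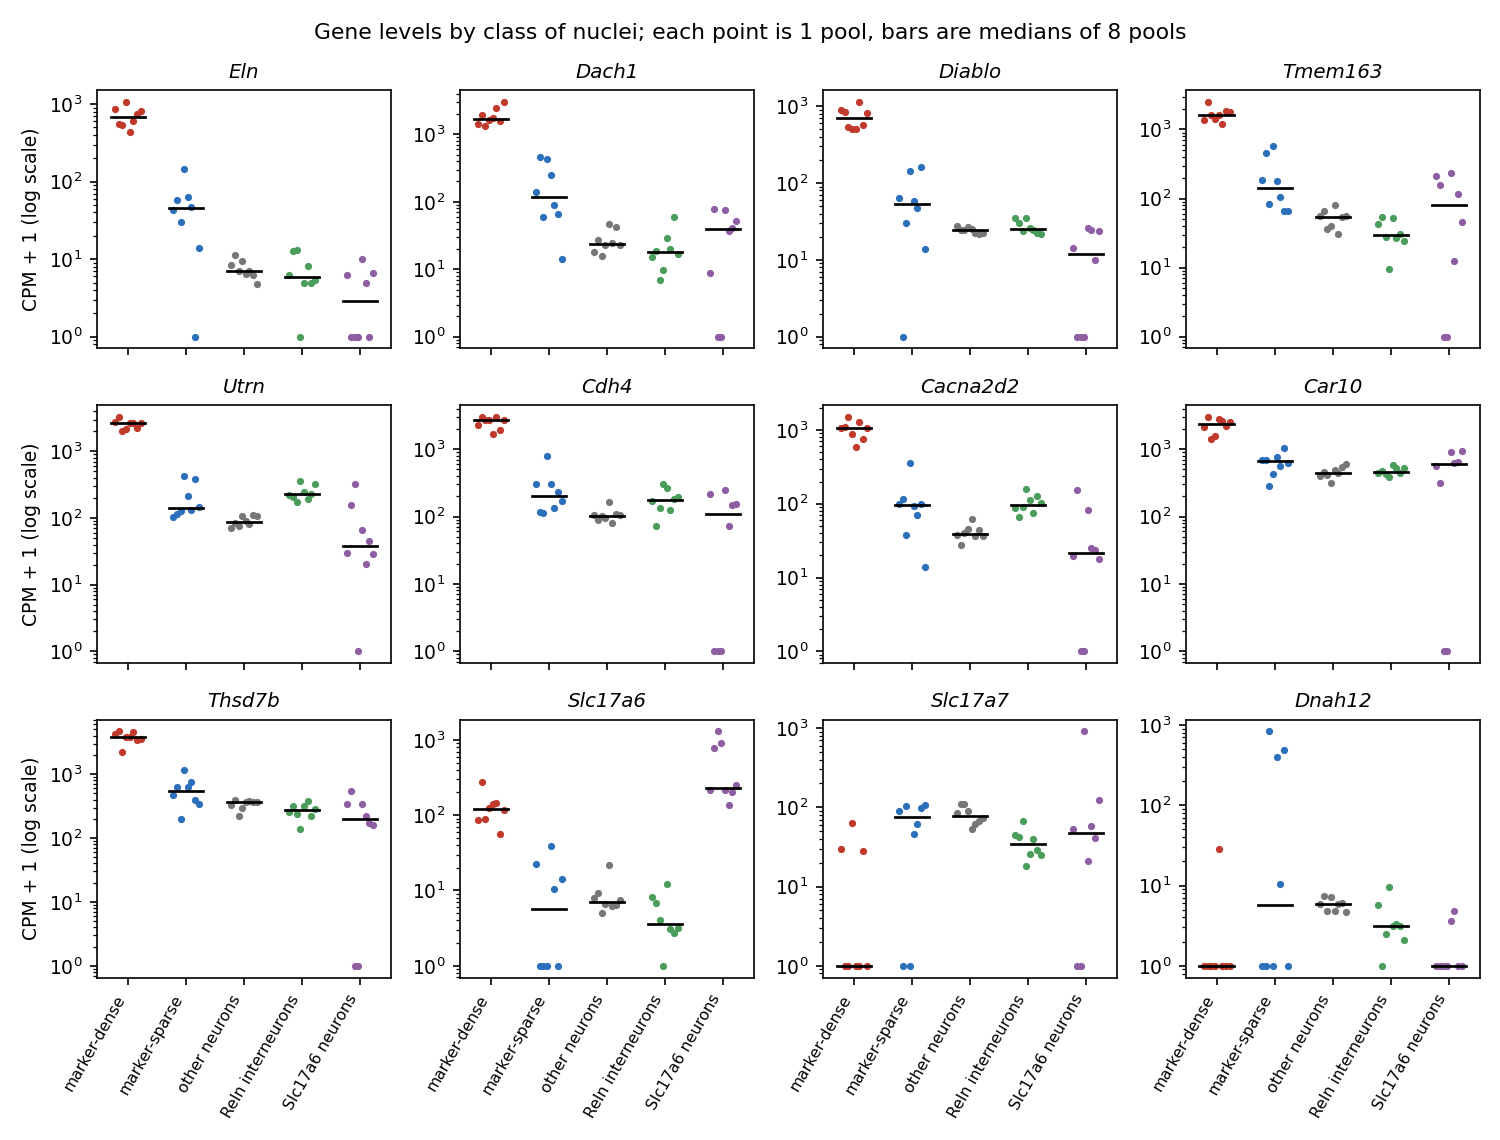
Levels of 12 genes (CPM + 1, log axis) are plotted with 1 point per pool and a bar at the median of 8 pools, for marker-dense and marker-sparse nuclei, other neurons, *Reln* interneurons and *Slc17a6* neurons. For *Eln*, *Dach1*, *Diablo* and *Cacna2d2* the points of the marker-dense nuclei lie above all points of the other classes, while *Dnah12* is at 0 in most pools of marker-dense nuclei and high in 3 pools of marker-sparse nuclei.

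Of the 331 genes called higher in the gated nuclei, 282 could be tested in the marker-dense nuclei, of which 152 had a higher and 20 a lower level by the same criterion. Of the 445 called lower, 444 could be tested and 416 were also lower. Over all 11019 genes tested in the marker-dense nuclei, 343 were higher and 2236 lower, and the median log2 value was −0.65.

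Genes that were lower included RNAs of the interneuron lineage. *Dlx6os1*, a noncoding RNA of the *Dlx* loci, was between 13.6 and 94.97 CPM in the 8 pools of gated nuclei against 169 to 244 in other neurons (log2 fold change −3.24 ± 0.24, adjusted p = 4.78e-21). *Dlx1as* fell by 3.40 on the log2 scale, with 4 UMIs. The gate left out nuclei with more than 1 UMI of *Gad1* and *Gad2* together, and its part in these low values was not tested. *Igf1*, the gene of insulin-like growth factor 1, fell by 2.74 (SE 0.61) with 4 UMIs, and *Slco1a4* by 2.45 (SE 0.69) with 3. *Drd2*, *Clic5*, *Adgrg6* and *Mrpl20* had 1 UMI each in the gated nuclei. *Npffr1* and *Eif2b1* had 0 UMIs, and were at least 3.03-fold and 1.95-fold lower than other neurons against a floor of 3 UMIs over all 8 pools.

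Gene groups chosen for this cell type were then counted. Of 20 Cajal-Retzius factors and markers outside the gate, 10 could be tested against other neurons, and 3 rose, *Cacna2d2*, *Thsd7b* (1.52 ± 0.17) and *Car10* (0.78 ± 0.17), with none lower, where 2.81% of all genes tested were higher. Their median log2 difference was 0.96, against −0.10 over all genes tested. *Thsd7b*, a thrombospondin-repeat gene, was at 3900.2 CPM in the marker-dense nuclei against 352 in other neurons, and *Car10*, a carbonic anhydrase-related gene, at 2351 against 467. *Tbr1* and *Nr2f2*, factors of early-born cortical neurons, had log2 values of 1.22 ± 0.42 and 1.14 ± 0.39 and missed the threshold (adjusted p = 0.0586 and 0.0648). With relative log expression 6 of the 10 passed, these 2 and *Zic1* among them.

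Of 6 transmitter genes, 4 could be tested. *Slc17a6* rose in the gated nuclei by 1.84 ± 0.36 (adjusted p = 9.74e-05). Its levels were 29.5 CPM in Control-Vehicle, 6.82 in Stress-Vehicle, 47.5 in Control-PLX5622, 66.3 in Stress-PLX5622, 48.7 in Con-IL-1R1+/+, 29.6 in Stress-IL-1R1+/+, 21.99 in Con-nIL-1R1-/- and 39.1 in Stress-nIL-1R1-/-. Those of other neurons reached 20.9, in Con-IL-1R1+/+, so the groups overlapped in Stress-Vehicle. The pool Con-IL-1R1+/+ also held 148 of the 274 nuclei with *Slc17a6* that are used for comparison below, and it had the highest *Ebf3* among other neurons, at 26.8 CPM.

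Of 12 reelin receptors and downstream genes, 12 were tested and 1 fell, *Dab1*, by 0.85 in the gated nuclei (SE 0.18, adjusted p = 0.000333). Its summed level was 2655 CPM in the gated nuclei, 1096 in the marker-dense ones among them and 3435 in other neurons. The receptor genes *Lrp8* and *Vldlr* had log2 values of 0.23 ± 0.18 and −0.15 ± 0.32 and did not pass. The list had a median of −0.10, as had all genes tested, of which 3.78% were lower. *Dab1* did not pass against the *Reln* interneurons (−0.38 ± 0.14, adjusted p = 0.0796) or the *Slc17a6* neurons (−0.25 ± 0.24, adjusted p = 0.641) described below, and *Src*, a kinase gene of this list, rose against both.

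Next, ion channels and receptors were counted. Of 16 ionotropic glutamate receptor subunits, 15 were tested and 7 fell, with a median of −0.69, where 3.78% of all genes tested were lower and their median was −0.10. Against the *Slc17a6* neurons described below, 12 of these subunits were tested, and *Grik4*, which rose, was the 1 that passed, with a median of −0.13 against 0.05 over all genes. *Grik1*, a kainate receptor subunit, fell by 1.78 (SE 0.21), *Grik3* by 1.14 (SE 0.20) and *Gria3* by 0.91 (SE 0.19). The NMDA receptor genes *Grin2b*, *Grin2a* and *Grin1* fell by 0.85, 0.71 and 0.53, and *Grin2b* was at 371 CPM in the marker-dense nuclei against 2091 in other neurons. With relative log expression 6 of the 7 passed, without *Grin1*. Of 12 GABA-A receptor subunits, 4 fell (*Gabra2*, *Gabra4*, *Gabrb1* and *Gabrg3*), with a median of −0.65, and 2 passed with relative log expression, *Gabra2* and *Gabrg3*. Against the *Slc17a6* neurons 2 of 8 tested fell, *Gabrb2* and *Gabra4*, with a median of −0.15. *Gabrg3* fell by 0.66 in the gated nuclei, but the marker-dense nuclei were at 988 CPM and other neurons at 781. Among 6 chloride carriers and HCN channels, the pacemaker channel gene *Hcn4* rose by 2.45 ± 0.46 (adjusted p = 3.84e-05, 22 UMIs in 6 pools). The chloride importer NKCC1 gene *Slc12a2* and the exporter KCC2 gene *Slc12a5* had log2 values of −0.25 ± 0.25 and −0.47 ± 0.18 and did not pass (adjusted p = 0.755 and 0.108).

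Of 15 p53 family targets and cell death genes, 9 were tested against other neurons and 0 passed by edgeR's quasi-likelihood test, with a median of 0.25. With relative log expression 1 passed as higher. Against the *Reln* interneurons described below 3 were tested and *Mdm2* rose, with a median of 0.47 against −0.01 over all genes, of which 5.63% were higher. Against the *Slc17a6* neurons 1 was tested and did not pass. Of 7 activity-regulated genes 5 were tested against other neurons and none passed, and of 3 chemokine guidance genes 1 was tested and did not pass. Against the *Slc17a6* neurons *Nr4a1* was the 1 activity-regulated gene tested and fell by 1.43, where 5.15% of all genes were lower. Against the *Reln* interneurons 1 was tested and did not pass.

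**Figure D4:**
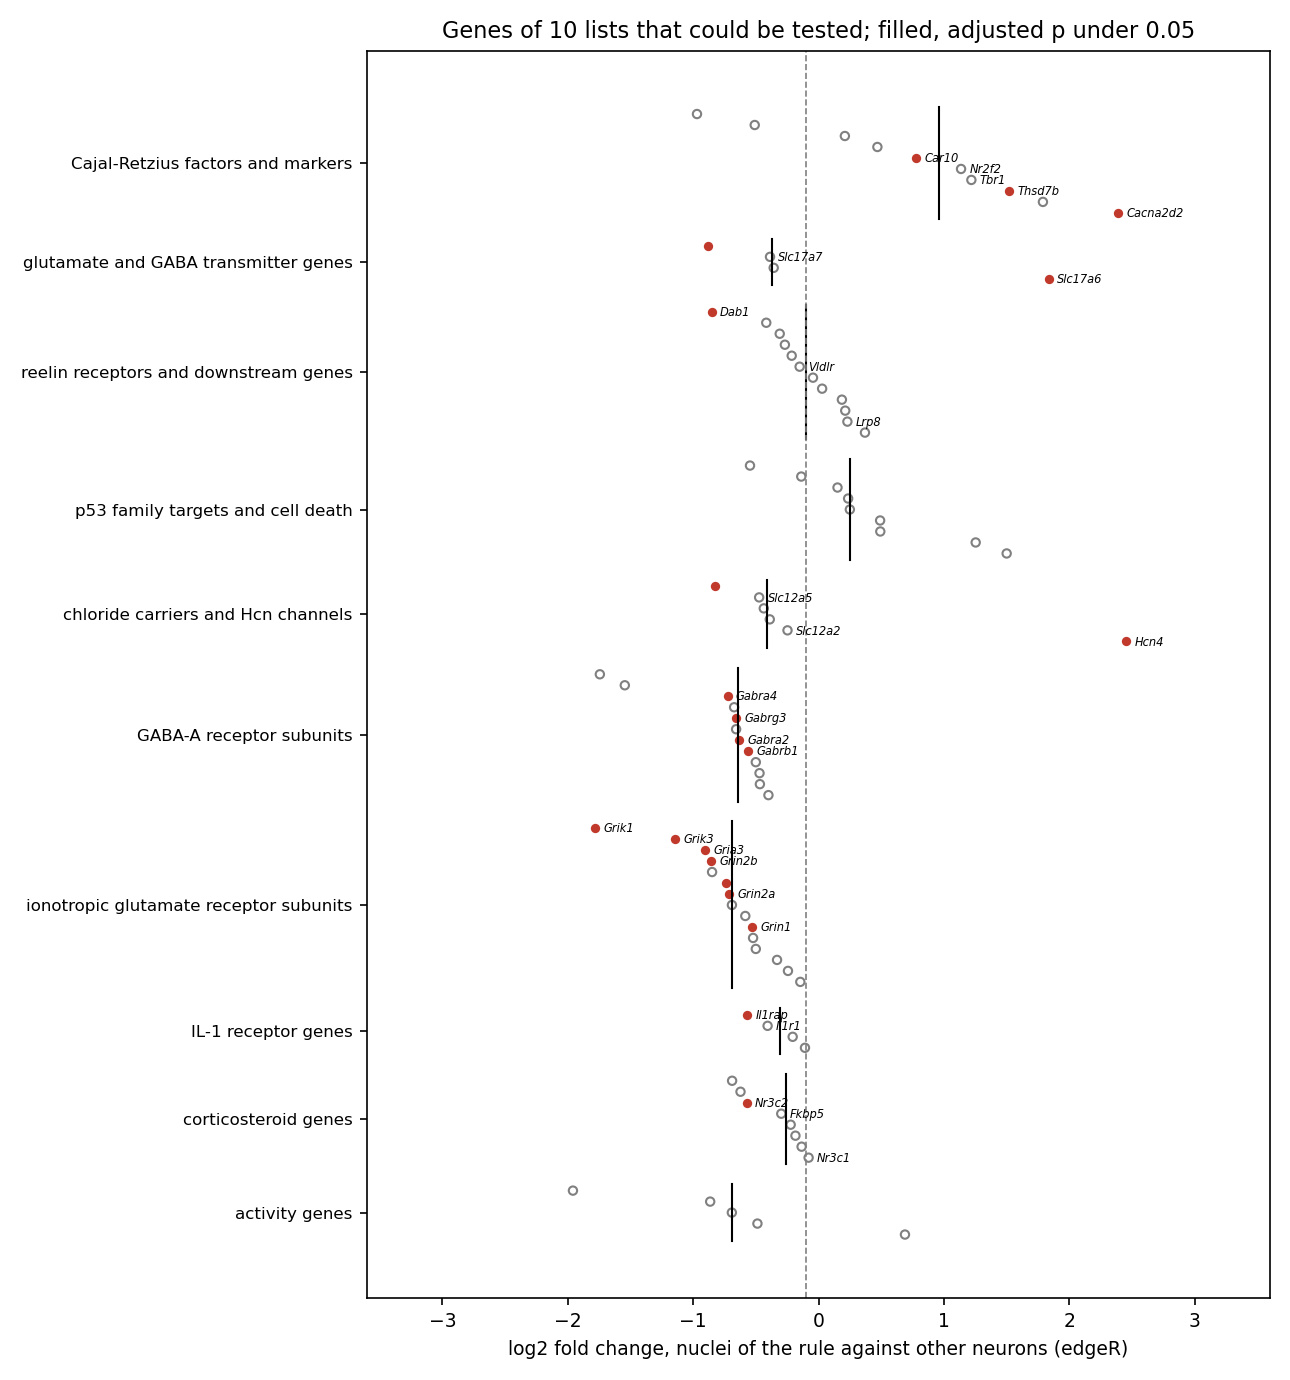
Log2 fold changes of gated nuclei over other neurons (x axis) are plotted for tested genes of the lists, 1 point a gene, filled at an adjusted p under 0.05, with black lines at list medians, a dashed line at the median of all genes and names for genes given in the text. Glutamate and GABA-A receptor subunits all lie below 0 in this scaling, and *Cacna2d2*, *Hcn4*, *Slc17a6* and *Thsd7b* lie above 0.

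Moreover, the gated nuclei were compared with 1357 nuclei outside the gate with no *Trp73*, at least 2 UMIs of *Gad1* and *Gad2* together and at least 2 of *Reln* and *Ndnf* together, called *Reln* interneurons. Of 4420 genes tested, 249 were higher (5.63%) and 386 lower (8.73%) in the gated nuclei. *Eln* (4.67 ± 0.31), *Dach1* (4.36 ± 0.20), *Eya2* (3.68 ± 0.31), *Tmem163* (3.55 ± 0.24) and *Diablo* (2.67 ± 0.22) rose in 8 of 8 pools with no overlap, as did *Cobll1* (2.27 ± 0.27). *Dlx6os1* fell by 5.31 (SE 0.21), the collagen gene *Col19a1* by 4.07 (SE 0.24), and the neurexin ligand gene *Nxph1* fell by 3.73 (SE 0.22). *Grik1* fell by 3.598 (SE 0.28), *Maf*, a transcription factor of interneurons from the medial ganglionic eminence, fell by 3.58 (SE 0.34) and *Egfr* fell by 3.47 (SE 0.36). These interneurons were chosen by *Gad1* and *Gad2*, so interneuron genes among these are tied to that choice. *Adarb2*, an interneuron gene, was at 249 CPM in the marker-dense nuclei, 1365 in other neurons and 4196 in the *Reln* interneurons. *Slc17a7* was at 13.6, 70.9 and 35.4 CPM in these 3 classes, and passed as higher in the gated nuclei than in the *Reln* interneurons although the marker-dense nuclei lay lower.

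Against 274 neurons with *Slc17a6*, of which 148 were in Con-IL-1R1+/+ and 1 in Stress-PLX5622, 2678 genes were tested. Of these 164 were higher (6.12%) and 138 lower (5.15%). With relative log expression the split was 203 higher and 117 lower, 63.4% higher against 54.3%. *Eln* rose by 4.41 ± 0.31, *Dach1* by 3.48 ± 0.26, *Diablo* by 2.96 ± 0.26, *Maml3*, a Notch coactivator gene, by 2.67 ± 0.27, *Cacna2d2* by 2.56 ± 0.26 and *Thsd7b* by 2.32 ± 0.26. In Control-PLX5622, with 5 *Slc17a6* neurons, a count of 3 UMIs in that class corresponds to 232 CPM, and in Stress-Vehicle, with 2 *Slc17a6* neurons, and in Stress-PLX5622, with 1, to 974.98 and 1363 CPM, so these 3 pools bear little on the difference. The metabotropic glutamate receptor gene *Grm8* fell by 2.32 (SE 0.26), *Tshz2* by 2.12 (SE 0.25), *Stac* by 1.79 (SE 0.26), *Brinp3* by 1.76 (SE 0.24), *Sgcz* by 1.73 (SE 0.26) and *Cntn6* by 1.49 (SE 0.26, lower in 7 pools and at 0 in both classes in the other). *Tshz2* was higher in the marker-dense than in the marker-sparse nuclei, at 693 against 261 CPM.

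*Il1rap*, which encodes the partner chain of the IL-1 receptor, fell by 0.57 in the gated nuclei (SE 0.18, adjusted p = 0.0406). Its summed level was 183 CPM in the gated nuclei, 67.9 in the marker-dense ones among them and 218 in other neurons. Of 13 IL-1 pathway genes 4 were tested, and *Il1rap* was the 1 that passed, where 3.78% of all genes were lower. It did not pass against *Reln* interneurons, at 174 CPM (log2 0.0039 ± 0.19, adjusted p = 0.998), or *Slc17a6* neurons, at 193 CPM (−0.21 ± 0.24, adjusted p = 0.698). Of 8 corticosteroid genes 8 were tested and 1 fell, the mineralocorticoid receptor gene *Nr3c2*, by 0.57 (SE 0.17, adjusted p = 0.0244). It did not pass against *Reln* interneurons (0.08 ± 0.15, adjusted p = 0.82) or *Slc17a6* neurons (−0.02 ± 0.24, adjusted p = 0.976), nor did the other genes of the list tested there, 6 and 5 in all. The glucocorticoid receptor gene *Nr3c1* had −0.08 ± 0.19 and its target *Fkbp5* −0.30 ± 0.19, and neither passed. Neither *Il1rap* nor *Nr3c2* passed with relative log expression.

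Finally, the gated nuclei were compared across stress, genotype and diet in 2339 genes, with the pools matched by diet and genotype. By edgeR's quasi-likelihood test 0 genes (0%) passed for stress, with 203 at an unadjusted p under 0.05 and a smallest adjusted p of 0.237. DESeq2's Wald test called 3 higher and 12 lower. For genotype 0 (0%) passed, with 205 at an unadjusted p under 0.05 and a smallest adjusted p of 0.0643, and DESeq2 called *Frmpd4*, *Hs3st4* and *Nwd2*. In the marker-dense nuclei alone 2 of 462 genes passed for genotype, *Dab1* and *Rbfox1*, both lower in the nIL-1R1-/- pools. For diet 0 (0%) passed, with 163 at an unadjusted p under 0.05 and a smallest adjusted p of 0.165, and DESeq2 called 0. The 3 comparisons share pools, and in each a stress effect that differed between pairs counts as spread. A pool in them is a mixture of marker-dense and marker-sparse nuclei, whose part in each result was not tested.

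The genes nearest to a change are given as values. *Il1rapl2*, a synaptic organizer gene of the IL-1 receptor family, was at 531 CPM in Control-Vehicle, 94.97 in Control-PLX5622, 396 in Con-IL-1R1+/+ and 392.4 in Con-nIL-1R1-/-. In the stress pools it was at 81.8 in Stress-Vehicle, 133 in Stress-PLX5622, 97.8 in Stress-nIL-1R1-/- and 88.8 in Stress-IL-1R1+/+. The stress pools were lower in 3 of 4 pairs, and the ranges overlapped through the PLX5622 pools (log2 −2.03 ± 0.38, adjusted p = 0.237). The marker-dense nuclei held 6 of its 540 UMIs. *Fgf13*, which binds voltage-gated sodium channels, had −1.89 ± 0.39 and 4 of 177 UMIs in marker-dense nuclei, and *Cntn4*, a contactin gene, had −1.39 ± 0.30 and 25 of 623. Among genes with higher values in stress, *Rn7sk*, the small nuclear RNA 7SK, was at 756 CPM in Stress-Vehicle and 1081 in Stress-IL-1R1+/+ and at 15.2 to 265 in the other 6 pools (3.08 ± 0.74, adjusted p = 0.244). The marker-dense nuclei held 25 of its 264 UMIs, 0 to 7 in a pool, too few to give a direction. *Pard3b* had 1.59 ± 0.40 and *Pdzrn3* 1.74 ± 0.46.

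For genotype, *Hs3st4*, a heparan sulfate sulfotransferase gene, was at 489.8 and 311 CPM in Con-IL-1R1+/+ and Stress-IL-1R1+/+ and at 1872 and 1399 in Con-nIL-1R1-/- and Stress-nIL-1R1-/- (2.03 ± 0.32, adjusted p = 0.0643). In the marker-dense nuclei of the same 4 pools it was at 110.3, 409, 125 and 78.4, with no such order. *Nwd2* had 2.61 ± 0.46 and *Frmpd4* 1.73 ± 0.34, while *Synpo2* had −3.68 ± 0.66, *Ttc28* −1.92 ± 0.39 and *Sgcz* −1.57 ± 0.34. The marker-dense nuclei held 2 UMIs of *Synpo2*. In the marker-dense nuclei of the same 4 pools, in the same order, *Ttc28* was at 634, 381, 303 and 314 CPM and *Sgcz* at 441, 218, 89.1 and 196, both lower in the nIL-1R1-/- pools. *Frmpd4* was at 276, 490, 143 and 275 there, lower in those pools and not higher, and *Nwd2* had 5, 1, 0 and 0 UMIs. For diet, *Fstl4* was at 619 and 449.8 CPM in the vehicle pools and 47.5 and 33.2 in the PLX5622 pools (−3.75 ± 0.66, adjusted p = 0.165), where each PLX5622 value is 1 UMI, under the floors below. The marker-dense nuclei were at 199 and 356 CPM in the vehicle pools and also had 1 UMI in each PLX5622 pool. There 3 UMIs correspond to 826 CPM in Control-PLX5622 and 186 in Stress-PLX5622, so these nuclei give no direction. *Grik1* had 2.76 ± 0.59, *Angpt1* 2.50 ± 0.56, *Rbms3* 1.58 ± 0.44 and *Hs3st4* −1.77 ± 0.41. *Ptpn3* had 0 UMIs in both PLX5622 pools and 147 and 191 CPM in the vehicle pools, with floors of 142 and 99.5 CPM for 3 UMIs in the PLX5622 pools.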

How the data were processed

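Nuclei were those of 8 pools of 3 mice. The authors aligned reads to mm39 with the Parse Biosciences pipeline and deposited whole-number UMI counts per gene and nucleus, not normalized. They filtered with Seurat 4.1.1, and the annotation release is not given in the sources used here. The GEO samples are 4 sublibraries, so the pool of a nucleus was taken from the condition set its counts were deposited under, which the treatment protocol names. Each pool held 6 first-round wells.

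Of 57350 nuclei, 516 with more than 20% mitochondrial UMIs were left out. No doublet caller was run, and deep gated nuclei may hold doublets. The gate, its members and all lists were chosen with earlier results of these data known. UMIs were summed per pool and class and tested by edgeR 4.0.16 (R 4.3.3) with TMM, filterByExpr, quasi-likelihood F-test and Benjamini-Hochberg adjustment at 0.05, with the pool as a block between classes. Conditions were fitted as stress plus pair. DESeq2 1.42.0 was an alternative. The study's own tests over single nuclei were not used. The code was tested on simulated data.

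Other neurons were nuclei outside the gate with at least 1 UMI of *Syt1*. *Reln* interneurons had at least 2 UMIs of *Gad1* and *Gad2*, at least 2 of *Reln* and *Ndnf* and 0 of *Trp73*. *Slc17a6* neurons had at least 2 UMIs of *Slc17a6*, at most 1 of *Gad1* and *Gad2* and 0 of *Trp73*. Named genes were *Il1r1* and, per comparison, those with the largest log2 change that passed, went the same way in each pool with a UMI of the gene and had at least 50 UMIs in the gated nuclei (higher) or comparison nuclei (lower). For conditions, in which none passed, the 3 genes nearest to passing in each direction are given. Gene positions are from GENCODE vM39 on GRCm39, the build of the files. Intervals and floors (3 UMIs) cover counting error only. Control and stress pools of 1 diet or genotype were matched by that design. The correlation of their deviations over 2339 genes was 0.0764 for vehicle, 0.0637 for PLX5622, 0.162 for IL-1R1+/+ and 0.125 for nIL-1R1-/-, against −0.0942 to 0.0693 for other control and stress pools. A few genes of the lists are not reported here.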

Additional observations from a re-analysis of the deposited data

Results flagged for a closer look

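Of 120 groups of 4 control or 4 stress pools examined, 12 held a pool that stood far from the nearest other pool relative to the range of the group, where chance gives about 1 in 20. In the control pools, Control-PLX5622, with 11 gated nuclei, was high for *Lhx1os* (189.9 CPM, next 59.0), *Dlx6os1* (94.97, next 30.4), *Maf* (47.5, next 7.37) and *Nxph1* (379.9, next 99.5). The *Dlx6os1* and *Maf* values there were 2 UMIs and 1 UMI, under the 142 CPM that 3 UMIs correspond to in that pool. All 4 UMIs of *Lhx1os* in Control-PLX5622 lay in marker-dense nuclei. The deepest gated nucleus of that pool gave 52.5% of the UMIs of its gated nuclei. Con-IL-1R1+/+ was high for *Brinp3* (319 CPM, next 142) and *Sgcz* (1275, next 569.8), and Stress-IL-1R1+/+ for *Brinp3* among stress pools (207, next 109). Stress-PLX5622 was high for *Angpt1* (464, next 118). For genes with 1 UMI, that UMI set the flag: *Adgrg6* in Control-Vehicle (3.68 CPM), *Drd2* in Con-IL-1R1+/+ (3.04) and *Clic5* and *Mrpl20* in Con-nIL-1R1-/- (1.69 CPM each).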

How the results depend on the processing

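The difference in the share of gated nuclei by stress reversed to 0.0479 percentage points after thinning to 1000 UMIs and to 0.00649 among marker-dense nuclei (stress lower in 2 and 3 of 4 pairs, SD 0.216 and 0.0943, with the PLX5622 pair 0.311 and 0.140 points higher), and without a pair it ran from −0.214 to −0.0858. Against other neurons, 776 of 11781 genes tested passed, and 407 did with DESeq2 and 401 with no replicate block. With no filter on low counts 1356 of 37248 passed, a smaller share. Among marker-dense nuclei 2579 of 11019 did. Without a pool the count ran from 581 to 909. Against *Reln* interneurons 1310 of 28483 passed with no filter in place of 635 of 4420, a smaller share. Against *Slc17a6* neurons 616 of 23222 passed with no filter in place of 302 of 2678, also a smaller share. Without a pool 192 to 315 did, where 192 was without Control-Vehicle. For stress, where 0 of 2339 passed, DESeq2 called 15 and no filter 58 of 19170. Leaving out a pair gave 0 to 4 (*Gm19951*, *Pard3b*, *mt-Rnr1* and *mt-Rnr2* without the IL-1R1+/+ pair, chosen after their values were seen). For genotype, DESeq2 called 3, no filter 144 and the marker-dense nuclei 2 (*Dab1* and *Rbfox1*), and without a pool 0 to 16, with 16 without Stress-IL-1R1+/+. For diet, no filter gave 9 of 19170. *Rbms3* by diet reversed to −0.12 in the marker-dense nuclei. With the mean over nuclei of each nucleus's CPM in place of summed CPM, 21 of the levels checked moved and 32 stayed the same. The causes were not tested. Of the named genes against other neurons, 377 values kept their call and 46 lost it, all 46 among genes lower in the gated nuclei with 4 or fewer UMIs there. Of the named genes against *Reln* and *Slc17a6* neurons, 167 and 166 values kept it. With no replicate block 0 genes passed for stress, and each stress pool deviated most like the control pool of its own diet or genotype, a hint from the data.

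Each combination was 1 pool, and 2 pools held few UMIs of gated nuclei, 21060 in Control-PLX5622 and 30145 in Stress-PLX5622, against 591246 in Con-nIL-1R1-/-. The marker-dense settings were chosen after seeing the data.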
